A study of Homo sapiens with 6 samples.

Results

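The kinesins are a family of motor proteins, and 42 of the 35268 named genes measured in Rh30 cells belong to it by symbol (KIF or KIFC, a number and, where present, a letter from A to C). By function, 14 of the 42 were placed among the mitotic kinesins, 17 among the transport kinesins and 11 among ciliary, regulatory and other kinesins. Rh30 is an established line of fusion-positive rhabdomyosarcoma, a muscle-lineage tumor of the young driven by the PAX3-FOXO1 fusion, and results from it are those of 1 line. The study examined how the transcription factor ETS1 and the fusion protein act together, and the drug is a small molecule that inhibits ETS family factors and is called YK in the deposited columns. Messenger RNA was sequenced from 3 samples of Rh30 cells kept for 24 hours in 1 µM of the drug, which was dissolved in DMSO, and from 3 samples kept in DMSO alone. The labels give no other treatment or modification in either group, and do not say whether the replicates were separate cultures, so that the p-values measure the spread between these samples, which may be technical.

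Kinesins use the energy of ATP to walk along microtubules or to take them apart. Mitotic kinesins build the spindle, move chromosomes and cut the dividing cell apart at cytokinesis, and dividing cells make most of their messenger RNA late in the cell cycle. Transport kinesins carry vesicles, mitochondria and other cargo through the cell, also in cells that do not divide. Promoters of many late cell cycle genes hold a short element called CHR beside a CCAAT box, which the DREAM and MuvB complexes and the factor NF-Y are known to bind.

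Promoter sequences from RefSeq on GRCh38.p14 were at hand for 34 of the 42 genes, as 43 windows from 250 bases before to 50 bases after an annotated start, each read 5′ to 3′ on the strand of the gene. Motifs were searched on both strands, without regard to overlap between them. CHR was taken as TTTGAA, or with the other middle base as TTTAAA. The CCAAT box was taken as those letters alone, and the core of the E2F site as TTCGCGC, or with G in place of the first C as TTGGCGC. The 5 mitotic stretches printed here are those of the 3 mitotic kinesins that fell (KIF11, KIF23, KIF2C), of KIF15, and of KIF20A, the 1 tested mitotic member with a fold change above 0, and KIF1A is the transport kinesin that rose. Each runs from 95 bases before to 5 bases after the start, and capitals mark a match to CHR, in either orientation, or to the CCAAT box, which reads ATTGG on the strand shown.
KIF11: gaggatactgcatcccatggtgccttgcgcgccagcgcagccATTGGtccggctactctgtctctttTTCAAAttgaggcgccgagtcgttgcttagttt
KIF23: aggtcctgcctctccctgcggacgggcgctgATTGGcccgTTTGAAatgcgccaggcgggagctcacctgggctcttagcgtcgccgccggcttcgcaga
KIF2C: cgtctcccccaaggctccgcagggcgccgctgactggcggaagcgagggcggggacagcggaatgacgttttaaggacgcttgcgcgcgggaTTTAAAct
KIF15: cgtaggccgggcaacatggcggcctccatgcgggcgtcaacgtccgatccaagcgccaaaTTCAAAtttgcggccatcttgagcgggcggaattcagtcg
KIF20A: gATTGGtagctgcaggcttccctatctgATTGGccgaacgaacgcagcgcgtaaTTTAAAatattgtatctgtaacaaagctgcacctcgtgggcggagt
KIF1A: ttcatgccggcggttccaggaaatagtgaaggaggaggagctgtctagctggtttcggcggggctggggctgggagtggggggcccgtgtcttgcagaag

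These stretches lie at chr10:92593035-92593134 (plus strand) for KIF11, chr15:69414254-69414353 (plus) for KIF23, chr1:44739742-44739841 (plus) for KIF2C, chr3:44761699-44761798 (plus) for KIF15, chr5:138179017-138179116 (plus) for KIF20A and chr2:240821399-240821498 (minus) for KIF1A. In KIF11 the CHR match began 28 bases and the CCAAT match 53 bases before the start, and in KIF23 they began 55 and 64 bases before it. KIF20A held a CHR match 41 bases before its start and CCAAT matches at 94 and 67 bases. KIF2C and KIF15 held a CHR match, at 3 and 35 bases, and no CCAAT match anywhere in their windows, and none of the 3 windows of KIF1A held any of the motifs.

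Over whole windows, 12 of the 14 mitotic kinesins (85.7%) held a CHR match, against 2 of 12 transport kinesins with a window (16.7%), 0 of 8 other kinesins and 27.9% of the 27305 genes in the promoter table. A CCAAT match was present in 11 of 14 mitotic kinesins (78.6%), 4 of 12 transport kinesins (33.3%), 3 of 8 other kinesins (37.5%) and 39.7% of all genes. Both stood in the same window in 10 mitotic kinesins (71.4%), in 1 transport kinesin, KIF5B, and in 11.2% of all genes. The E2F core was found in 3 mitotic kinesins, 1 transport kinesin, 1 other kinesin and 6.1% of all genes. These counts describe letters in a window and do not show that a factor is bound there. KIF20A held both motifs, as did KIF11 and KIF23. KIF15 also held an E2F core, on the opposite strand and beginning 43 bases before its start.

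The deposited values are normalized counts, reads divided by a factor for each library, and the libraries held between 16724650 and 24677433 reads on named genes. Genes with a mean of at least 10 normalized counts over the 6 libraries were tested, which left 13930 genes and 36 of the 42 kinesins. DMSO replicate 1 was the library least like the rest: across genes its correlations with them averaged 0.989, against at least 0.992 for every other library. For many of the genes named, values are given with and without it. Myogenic transcripts marked the cells as the labels do: MYOD1, the myogenic master regulator, held between 34516 and 39146 normalized counts in each library, and the summed level of 8 rhabdomyosarcoma and muscle markers was 89662 to 104835 in DMSO and 96152 to 100973 in YK libraries. With all 6 libraries none of the 8 was called by limma, edgeR or DESeq2. At an unadjusted p under 0.05 by limma 4 were higher, against 7.69% of all genes. Of the 8, 4 had a fold change below 0 and 4 above. In MYOG, DES and MYH3, genes of muscle differentiation, all YK libraries lay above all DMSO libraries, against 10.9% of all genes. Their log2 fold changes were 0.23, 0.14 and 0.60, and 0.08, 0.08 and 0.52 without DMSO replicate 1. Those of MYOD1, FGFR4, CDH15 and CHRNA1 were -0.01, -0.12, -0.03 and -0.02. Without DMSO replicate 1 limma called FGFR4 and CDH15 lower (adjusted p = 0.00285 and 0.0106), against 8.46% of all genes. With the trend on GC content and length removed it called 1 lower and 2 higher, against 6.66% and 4.72%.

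Of 10 markers of other cell types PTPRC, KRT5, CD3E and CDH1 held at most 1.71 normalized counts, while EPCAM, an epithelial marker, held 50.1 to 88.3, PECAM1, an endothelial one, 14.1 to 29.0, and CD14, a myeloid one, 3.78 to 11.99 in DMSO and 15.01 to 23.1 in YK libraries. Of the 10 markers 5 were tested, all with a fold change above 0, and limma called 1 higher, COL1A1, against 1.26% of all genes. COL1A1 held 579, 691 and 638 normalized counts in DMSO and 816, 824 and 774 with the drug. Its log2 fold change was 0.34 (limma adjusted p = 0.0375), and 0.28 without DMSO replicate 1 (limma adjusted p = 0.00161). The summed level of the 10 was 673 to 799 in DMSO and 911 to 972 in YK libraries, and COL1A1 held most of it in every library. The part of these markers and of the muscle markers in the kinesin results was not tested.

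Mitotic kinesins were the most abundant kinesin messages as a group, although the single most abundant kinesin was a transport motor. Levels were compared between genes per kilobase of transcript. In DMSO the 12 tested mitotic kinesins lay between 175 (KIF14) and 1553 (KIFC1) normalized counts per kilobase, with a median of 722. The 17 transport kinesins lay between 1.74 (KIF21A) and 2392 (KIF5B), with a median of 72.3. The 7 other kinesins tested lay between 12.2 (KIF27) and 1236 (KIF26A), with a median of 134.

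KIF5B, the heavy chain of conventional kinesin that moves mitochondria and lysosomes, stood first at 2392 ± 295 normalized counts per kilobase (SD, n = 3), above KIFC1 at 1553 ± 165. KIF26A, an atypical kinesin that binds microtubules but does not move along them, followed at 1236 ± 118. Next came KIF22 at 1110 ± 84.9, KIF2C at 1066 ± 51.9, KIF23 at 1056 ± 158 and KIF20A at 1026 ± 95.1, and these neighbours lay within each other's spread. The remaining 6 members were not tested. KIF2B and KIF12 were at 0 reads in all 6 libraries, and KIF4B, KIF6, KIF19 and KIF25 had at most 8.83 normalized counts in any library. KIF4B is a near-identical copy of KIF4A, so the assignment of reads between these 2 genes is uncertain.

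**Figure D1:**
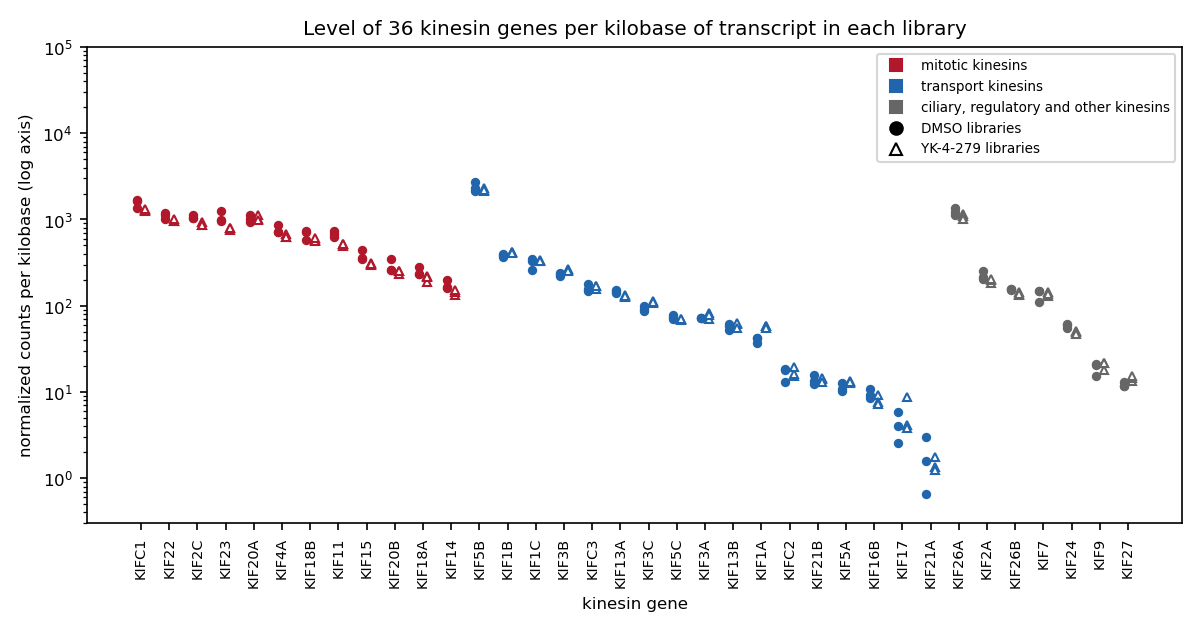
Level of each of the 36 tested kinesin genes in each library, in normalized counts per kilobase of transcript on a log axis. Filled circles are the 3 DMSO libraries and open triangles the 3 YK libraries, with the genes ordered by level within the mitotic, transport and other lists. Single libraries of mitotic kinesins lie between 133 and 1662, while those of transport kinesins run from 0.655 up to 2724 for KIF5B.

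With the drug, mitotic kinesins as a group had lower levels, and the median of the transport kinesins lay near that of all genes. Of the 12 mitotic kinesins tested, 11 had a lower mean on the log2 scale and 1 a higher one, and their median log2 fold change was -0.26. Over all 13930 genes tested the median was -0.01, with 7246 genes lower and 6684 higher. Of the 17 transport kinesins 5 were lower and 12 higher, with a median of 0.05, so that the medians of the lists differed by -0.32. The 7 other kinesins had 4 lower and 3 higher, with a median of -0.16.

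The test was that of limma over all genes, on log2(normalized count + 1), a scale that understates the fold changes of genes with few reads. At a Benjamini-Hochberg adjusted p under 0.05, 4 of the 36 kinesins were called (11.1%), against 3.41% of all genes tested. KIF11, KIF23 and KIF2C fell, which is 3 of 12 mitotic kinesins (25%) against 2.15% of all genes called lower. KIF1A rose, which is 1 of 17 transport kinesins (5.88%) against 1.26% of all genes called higher. No kinesin of the ciliary, regulatory and other list was called by limma, edgeR or DESeq2, and 4 of its 7 members were lower at an unadjusted p under 0.05 by limma, against 10.98% of all genes. Leaving out DMSO replicate 1 called 2 of the 7 lower, KIF26A and KIF26B, against 8.46% of all genes called lower in that fit. In bulk RNA, fewer cells in the late cell cycle and less of a message in each cell cannot be told apart.

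In 10 of the 12 mitotic kinesins all 3 YK libraries lay below all 3 DMSO libraries, against 15.1% of all genes tested, and in none did they lie above them, against 10.9%. Among transport kinesins the YK libraries lay below in 1 gene (KIF13A) and above in 4 (KIF1A, KIF3C, KIF3B and KIF1B). Among the other kinesins they lay below in 3 and above in 1.

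**Figure D2:**
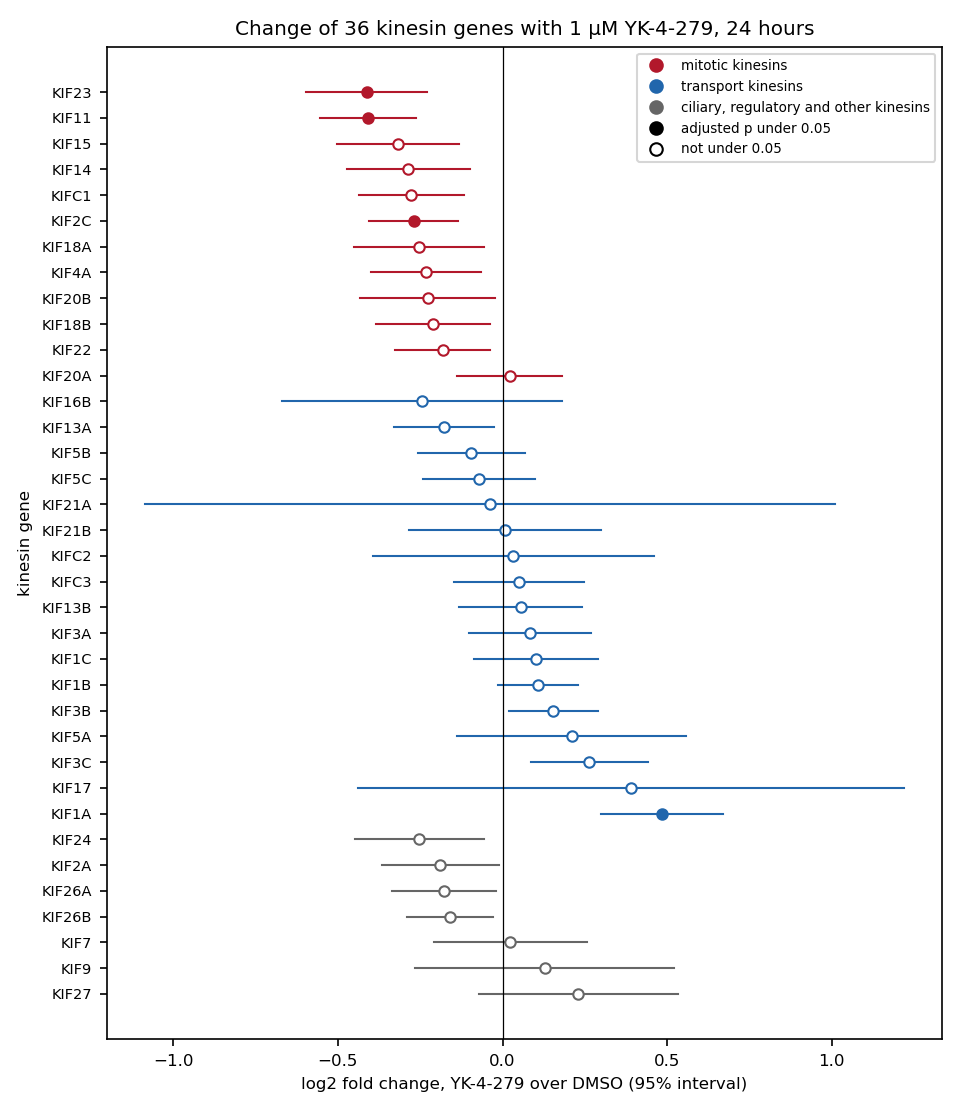
Log2 fold change of each tested kinesin gene, YK over DMSO, with its 95% interval from limma, in the mitotic (red), transport (blue) and other (grey) lists. Filled points have an adjusted p under 0.05: KIF11, KIF23 and KIF2C on the left and KIF1A on the right. KIF20A, at 0.02, is the only mitotic point above 0.

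KIF11 (chr10:92574105-92655395, plus strand, hg38) encodes the motor that slides antiparallel microtubules apart to make a spindle with 2 poles, and it is the target of several antimitotic compounds. It held 3684, 3112 and 3373 normalized counts in DMSO replicates 1, 2 and 3 and 2453, 2596 and 2593 in YK replicates 1, 2 and 3. The groups did not overlap, and the lowest DMSO library lay well above the highest treated one. The mean fell from 3390 ± 287 to 2548 ± 81.7 (SD, n = 3 each), or by a log2 fold change of -0.41 (SE 0.07, limma adjusted p = 0.00748). Without DMSO replicate 1 the log2 fold change was -0.35 (limma adjusted p = 9.87e-08), and over all alternatives the adjusted p ranged from that value to 0.11 (limma with eBayes without trend).

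KIF23 (chr15:69414246-69448427, plus strand) encodes the motor of centralspindlin, which gathers at the midzone of the spindle and is needed for cytokinesis. Its DMSO libraries held 4529, 3501 and 3562 normalized counts and its treated libraries 2784, 2952 and 2910. DMSO replicate 1 was the highest of all, and the groups stayed apart without it. The log2 fold change was -0.41 (SE 0.09, limma adjusted p = 0.0206), and -0.29 without DMSO replicate 1 (limma adjusted p = 1.31e-06, with alternatives up to 0.175). The antisense gene KIF23-AS1 shares 3.5% of its exon bases.

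KIF2C (chr1:44739818-44767767, plus strand) encodes a kinesin that does not walk but takes microtubules apart, and it corrects faulty attachments of chromosomes. Its counts were 3220, 2993 and 2942 in DMSO and 2468, 2682 and 2442 with the drug. The groups did not overlap, and in DMSO the 3 libraries were close to one another. The mean fell from 3052 ± 148 to 2531 ± 132, a log2 fold change of -0.27 (SE 0.06, limma adjusted p = 0.0355). With the replicate number as a block the adjusted p from limma was 0.0877, and without DMSO replicate 3 it was 0.0709. Over all alternatives it ranged from 0.000197 to 0.225 with limma.

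KIFC1 and KIF15 lay just past the threshold. KIFC1 (chr6:33391823-33409896, plus strand), a motor that walks to the minus end and clusters extra centrosomes, held 3261, 3908 and 3973 normalized counts in DMSO and 3045, 2976 and 3138 with the drug. Here DMSO replicate 1 was the lowest of the DMSO libraries and came closest to the treated ones. The log2 fold change was -0.28 (SE 0.07, limma adjusted p = 0.0586), and -0.37 without DMSO replicate 1 (limma adjusted p = 5.88e-09, with alternatives up to 0.261).

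KIF15 (chr3:44761721-44873376, plus strand), which helps hold the spindle poles apart and can stand in for KIF11, held 2127, 1686 and 1663 normalized counts in DMSO and 1428, 1470 and 1464 with the drug. The groups did not overlap, the treated libraries were within a narrow range, and DMSO replicate 1 stood above the other DMSO libraries. The log2 fold change was -0.32 (SE 0.09, limma adjusted p = 0.0615). It was -0.20 without DMSO replicate 1 (limma adjusted p = 0.00248, with alternatives up to 0.276). DESeq2 on the recovered reads gave both genes an adjusted p under 0.05, at 0.0178 for KIFC1 and 0.0187 for KIF15.

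**Figure D3:**
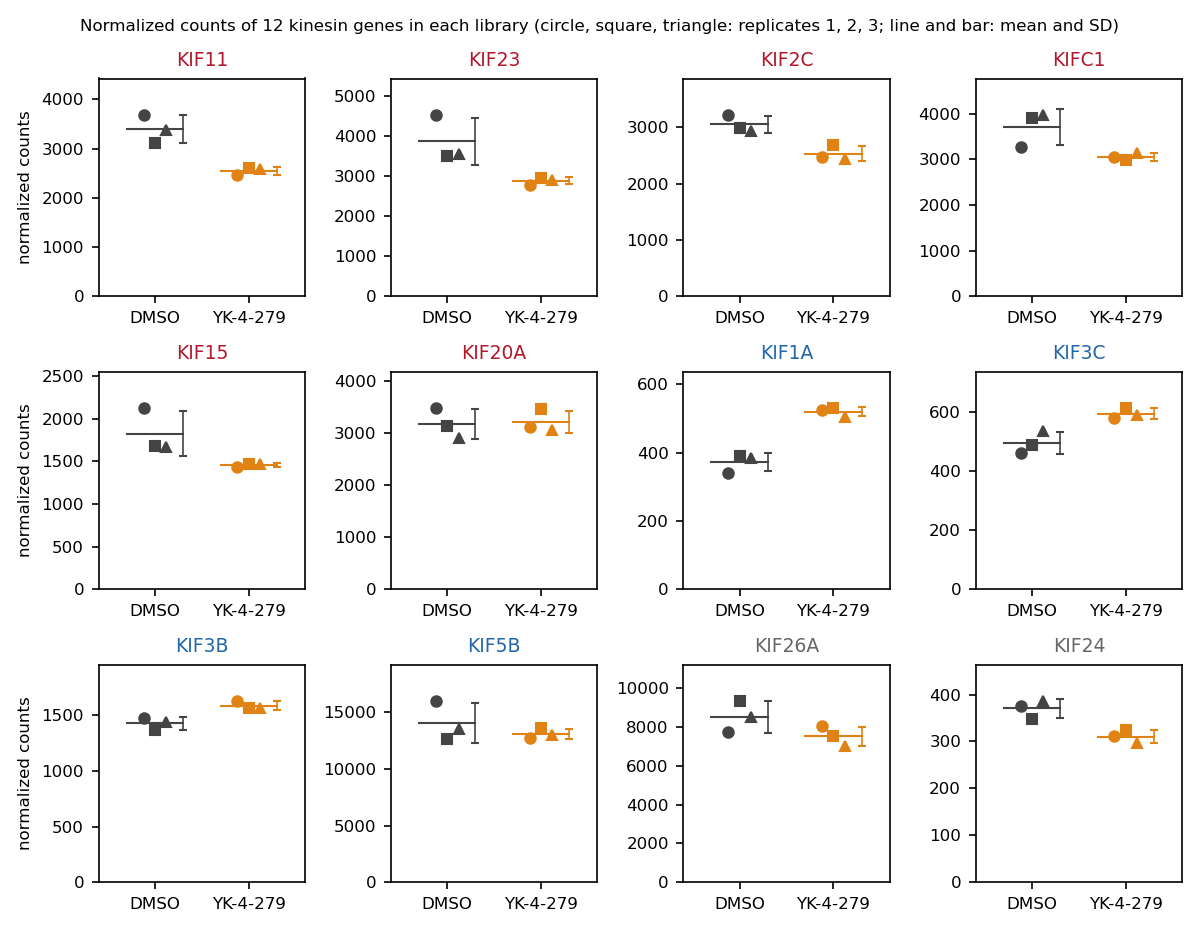
Normalized counts of 12 kinesin genes in each library, on linear axes from 0. Circles, squares and triangles are replicates 1, 2 and 3, and lines and bars are the mean and SD of 3 libraries. The DMSO and YK points of KIF11, KIF23, KIF2C, KIFC1, KIF15, KIF1A, KIF3C, KIF3B and KIF24 do not overlap, and those of KIF20A, KIF5B and KIF26A do.

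Of the remaining mitotic kinesins, 6 had log2 fold changes between -0.18 (KIF22) and -0.29 (KIF14) and were not called with all libraries, while 4 of them were called lower without DMSO replicate 1. KIF14, which acts at the midbody in cytokinesis, held 1451, 1176 and 1198 normalized counts in DMSO and 970, 1062 and 1095 with the drug, with no overlap (limma adjusted p = 0.0887). Its log2 fold change was -0.19 without DMSO replicate 1 (limma adjusted p = 0.0176). KIF4A, a chromokinesin that also orders the central spindle, held 3820, 3140 and 3107 against 2770, 2987 and 2778 (log2 fold change -0.23, limma adjusted p = 0.124, and -0.14 with 0.0313 without DMSO replicate 1). KIF22, a chromokinesin that pushes chromosome arms from the poles, changed from -0.18 (limma adjusted p = 0.165) to -0.24 (0.000138) when that library was left out. KIF18B, which shortens astral microtubules, was the only one of the 6 whose groups overlapped, at 2388, 3012 and 2926 against 2375, 2310 and 2471. The overlap came from DMSO replicate 1, and without it the log2 fold change of KIF18B was -0.32 (limma adjusted p = 5.99e-07).

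KIF20A (chr5:138178719-138187723, plus strand) lay at the other end of the mitotic list. It encodes the motor that takes the chromosomal passenger complex with AURKB to the central spindle. Its DMSO libraries held 3489, 3133 and 2905 normalized counts and its treated libraries 3128, 3462 and 3072. The groups overlapped throughout. The log2 fold change was 0.02 with a 95% interval from -0.14 to 0.18 (limma adjusted p = 0.905), so that a fall as large as that of KIF11 lay outside the interval. The log2 fold change was 0.09 without DMSO replicate 1 (limma adjusted p = 0.203), and turned to -0.04 without DMSO replicate 3 and to -0.03 without YK replicate 2. KIF20A was singled out after its values were seen. The log2 ratio of KIF20A to KIF11 was -0.08, 0.01 and -0.22 in the DMSO libraries and 0.35, 0.42 and 0.24 in the treated ones.

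Among the transport kinesins KIF1A (chr2:240713761-240824293, minus strand), which carries precursors of synaptic vesicles along axons, was the 1 gene called. It held 342, 390 and 386 normalized counts in DMSO and 526, 531 and 504 with the drug. The lowest treated library lay well above the highest DMSO library. The mean rose from 372 ± 26.6 to 521 ± 14.4, a log2 fold change of 0.48 (SE 0.09, limma adjusted p = 0.0105), and 0.42 without DMSO replicate 1 (limma adjusted p = 6.29e-05, with alternatives up to 0.101). Per kilobase KIF1A remained a low message, at 40.8 ± 2.92 in DMSO and 57.0 ± 1.58 with the drug.

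KIF3C (chr2:25926598-25982749, minus strand), a subunit of heteromeric motors found mainly in neurons, held 461, 489 and 534 normalized counts in DMSO and 578, 613 and 588 with the drug. The groups did not overlap, and the log2 fold change was 0.26 (SE 0.08, limma adjusted p = 0.1). KIF3B, a subunit of the motor of intraflagellar transport, held 1480, 1369 and 1437 against 1632, 1571 and 1565 (log2 fold change 0.15, limma adjusted p = 0.21). Its partner subunit KIF3A held 450, 460 and 458 against 441, 521 and 491, and these groups overlapped. Without DMSO replicate 1 KIF3C, KIF3B and KIF1B were called higher as well, with limma adjusted p of 0.0382, 0.00956 and 0.0176. For KIF3C the adjusted p of limma ranged from 0.0266 to 0.316 over the alternatives. KIF1B carries mitochondria and vesicles.

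KIF13A (chr6:17759183-17987635, minus strand), a motor of endosomal vesicles, held 907, 890 and 846 normalized counts in DMSO and 751, 807 and 777 with the drug. It was the only transport kinesin in which all treated libraries lay below, with a log2 fold change of -0.18 (SE 0.07, limma adjusted p = 0.198). KIF5B (chr10:32009015-32056425, minus strand), the most abundant kinesin, held 15978, 12661 and 13456 normalized counts in DMSO and 12695, 13583 and 12960 with the drug. Its groups overlapped, and only DMSO replicate 1 lay above the treated libraries as a whole. The log2 fold change of -0.09 (SE 0.08, limma adjusted p = 0.536) was 0.0023 without that library. KIF5A and KIF5C, the heavy chains found mainly in neurons, held means of 65.3 and 513 in DMSO and 75.4 and 488 with the drug, with overlap in both. The remaining 8 transport kinesins, from KIF16B (log2 fold change -0.25) to KIF17 (0.39), had overlapping groups as well, and both of these held under 60 normalized counts in every library. Their log2 fold changes were -0.15 and 0.10 without DMSO replicate 1.

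Of the other kinesins, KIF24 (chr9:34252380-34329268, minus strand), which acts at the mother centriole and holds back cilium formation, held 376, 349 and 387 normalized counts in DMSO and 312, 324 and 296 with the drug. Its groups did not overlap (log2 fold change -0.25, SE 0.09, limma adjusted p = 0.153). KIF2A (chr5:62306162-62391025, plus strand), a microtubule depolymerase of spindle poles and neurons, held 2036, 1638 and 1702 against 1470, 1590 and 1637, where the highest treated library almost met the lowest DMSO library (log2 fold change -0.19, SE 0.08, limma adjusted p = 0.242). Without DMSO replicate 1 its log2 fold change was -0.09, and with the trend on GC content and length removed it was -0.11. On the opposite strand, 27.2% of its exon bases are shared with other genes, DIMT1 among them. Placing KIF2A among the mitotic kinesins left the sign of that list's median as it was.

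KIF26A (chr14:104136454-104180894, plus strand) held 7703, 9329 and 8511 normalized counts in DMSO and 8010, 7506 and 7016 with the drug, with overlap through DMSO replicate 1. Its log2 fold change was -0.18 (SE 0.07, limma adjusted p = 0.21), -0.25 without that library (limma adjusted p = 4.35e-05, with alternatives up to 0.547) and -0.11 without DMSO replicate 2 (0.391). KIF26B, its close relative, held 2082, 2133 and 2117 against 1978, 1826 and 1866 without overlap (log2 fold change -0.16, limma adjusted p = 0.173), and was called lower without DMSO replicate 1 (-0.17, limma adjusted p = 0.00973). KIF7, a regulator of Hedgehog signaling at the tip of the cilium, differed by 0.02 on the log2 scale, with a 95% interval from -0.21 to 0.26, and by -0.12 without DMSO replicate 1 (limma adjusted p = 0.275), a change of sign. KIF27, a relative of KIF7, was the 1 gene of this list with all treated libraries above, at 94.6, 85.9 and 86.0 against 96.0, 105 and 112 (limma adjusted p = 0.404). KIF9, a kinesin of motile cilia, had overlapping groups (log2 fold change 0.13, and 0.22 without DMSO replicate 1).

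The sum of normalized counts per kilobase over the tested mitotic kinesins was 9333, 8922 and 8824 in the DMSO libraries and 7418, 7771 and 7633 in the YK libraries. The treated sums all lay below, by 15.7% in the mean. Over the transport kinesins the sums were 4306, 3808 and 3959 against 3904, 4065 and 3930, which overlapped. The mitotic kinesins made up 60.7%, 60.8% and 60.3% of the summed kinesin message in DMSO and 56.9%, 57.7% and 58.1% with the drug, so that the composition of the family differed without overlap, while mitotic motors remained the larger share in every library.

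Among mitotic kinesins, and among the ciliary, regulatory and other kinesins, the place of DMSO replicate 1 differed with GC content, the share of G and C bases in the transcript. The part of GC content in the results was not tested beyond the fits given here. It was the highest DMSO library for 9 mitotic genes whose transcripts hold between 34.3% and 50% GC, and the lowest for KIFC1, KIF18B and KIF22, which hold between 57.5% and 58.4% GC. Among transport kinesins the ranges overlapped, with DMSO replicate 1 highest for 7 genes between 39.1% and 59.8% GC and lowest for 9 between 37.4% and 67.2%. Among the other kinesins it was highest for 3 genes between 36.1% and 51.5% GC and lowest for 3 between 54% and 68.6%. Leaving it out called 15 kinesins by limma, of which 11 were lower and 4 higher, with all 4 genes of the full comparison among them. Of those, 9 were mitotic kinesins called lower, against 8.46% of all genes called lower in that fit, and 4 were transport kinesins called higher, against 4.62%. The medians were then -0.22 for mitotic and 0.0035 for transport kinesins.

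When the trend of every library on the GC content and length of transcripts was removed, 14 kinesins were called, again including those 4. Mitotic kinesins called lower numbered 9, against 6.66% of all genes, and transport kinesins called higher numbered 3, against 4.72%. The mitotic median was -0.23 and the transport median 0.03. KIF18A, KIF20A and KIF20B were the mitotic kinesins not called in either of these fits. KIF18A, which brings chromosomes to the middle of the spindle, and KIF20B, a motor of cytokinesis, had log2 fold changes of -0.25 and -0.23 in the full comparison and -0.17 and -0.10 without DMSO replicate 1. Conversely, leaving out any 1 of the YK libraries left 0 kinesins called by limma, with 12, 12 and 13 kinesins at an unadjusted p under 0.05 without replicates 1, 2 and 3, of 36 tested. The shares of all genes at that unadjusted p in those fits were 11.7%, 13.7% and 13.2%.

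**Figure D4:**
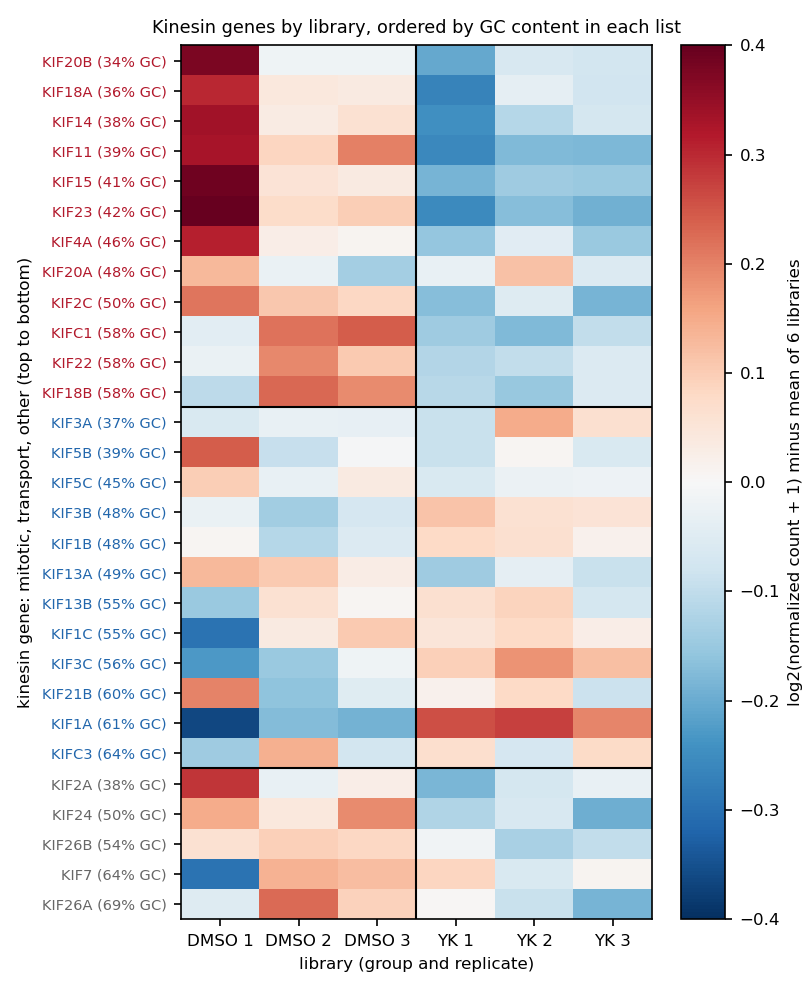
Log2(normalized count + 1) of the 29 tested kinesin genes with a mean of at least 100, minus the gene's mean over the 6 libraries, with genes of each list ordered by transcript GC content from low to high. Red is above and blue below the gene's mean. In DMSO replicate 1 the mitotic genes from 34.3% to 50% GC are the reddest cells of their rows, while KIFC1, KIF22 and KIF18B at the bottom of that list are not.

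**Figure D5:**
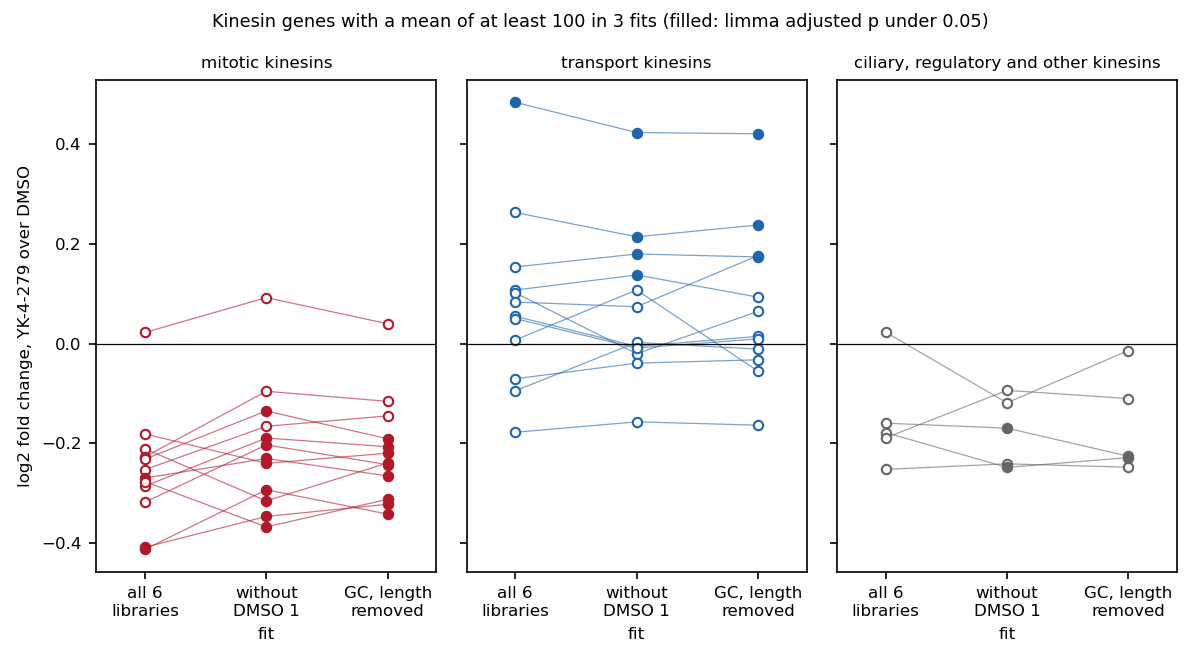
Log2 fold change, YK over DMSO, of the kinesin genes with a mean of at least 100 in 3 fits: all 6 libraries, without DMSO replicate 1, and with the trend on GC content and length removed. Filled points have a limma adjusted p under 0.05, and lines join a gene. Mitotic kinesins called numbered 3, 9 and 9, and KIF20A is the mitotic point above 0 in these 3 fits, although it was below 0 without DMSO replicate 3 or YK replicate 2.

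Partners of the mitotic kinesins were counted from a list of 21 genes of the spindle, kinetochore and central spindle. Their median log2 fold change was -0.19, against -0.01 over all genes. Lower means were found for 19 and higher means for 2, and 6 were called lower and none higher by limma, against 2.15% of all genes called lower. Without DMSO replicate 1 it called 11 lower (8.46% of all genes), and 12 with the GC and length trend removed (6.66%). The 2 above 0 included NUSAP1, which with PRC1 held under 30 normalized counts in every library. CDK1, the kinase that starts mitosis and phosphorylates several of these motors, held 3496, 2996 and 3189 normalized counts in DMSO and 2141, 2382 and 2531 with the drug. The groups did not overlap (log2 fold change -0.46, limma adjusted p = 0.00741). The other 5 called were NDC80 and SKA1 of the kinetochore, INCENP and AURKB of the chromosomal passenger complex, and RACGAP1, which pairs with KIF23 in centralspindlin.

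RACGAP1 held 4001, 3604 and 3522 normalized counts in DMSO and 2999, 3270 and 3041 with the drug, without overlap. Its log2 fold change was -0.26 (limma adjusted p = 0.0487), in the direction of KIF23. AURKB, the passenger kinase that KIF20A takes to the midzone, held 1692, 1911 and 1841 against 1430, 1434 and 1540 (log2 fold change -0.30, limma adjusted p = 0.0283). In these 2 pairs, then, KIF23 and RACGAP1 both fell, while AURKB fell and KIF20A was not called. TPX2, which targets KIF11 to the spindle, had overlapping groups (log2 fold change -0.14, limma adjusted p = 0.29, and -0.08 without DMSO replicate 1).

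The 2 kinesins that carry names outside the KIF series were not called. CENPE, the motor that carries chromosomes to the spindle equator, held 3909, 2958 and 3098 normalized counts in DMSO and 2688, 3064 and 3022 with the drug, with overlap (log2 fold change -0.17, limma adjusted p = 0.332, and -0.05 without DMSO replicate 1). STARD9 held 1174, 1283 and 1433 against 1477, 1343 and 1473, also with overlap (log2 fold change 0.15, limma adjusted p = 0.348, and 0.08 without DMSO replicate 1).

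The machinery of transport outside the kinesin motors showed no calls with all 6 libraries, where 3.41% of all genes were called and so lists of this size hold few calls or none at the background share. Of 18 tested kinesin light chains and cargo adaptors 9 were lower and 9 higher, with a median of 0.02, and limma, edgeR and DESeq2 called 0, with 1 at an unadjusted p under 0.05 by limma, against 18.7% of all genes. KLC1 and KLC2, light chains that tie KIF5 motors to cargo, had log2 fold changes of 0.04 and 0.16 with overlapping groups, and both were 0.02 without DMSO replicate 1. Of 23 tested subunits and cofactors of cytoplasmic dynein and dynactin, the motor of the opposite direction, 14 were lower and 9 higher, with a median of -0.03. The same tools called 0, and 3 were at an unadjusted p under 0.05 by limma. Leaving out DMSO replicate 1 gave 2 genes called lower by limma: BICD2, an adaptor that links dynein to cargo (adjusted p = 0.00993), and PAFAH1B1, a cofactor of dynein (adjusted p = 0.0147). That is 2 of 23, near the 8.46% of all genes called lower in that fit. Both were also called with the GC and length trend removed, against 6.66% of all genes, while no light chain or adaptor was called in either fit. All treated libraries lay below all DMSO libraries in 7 of the 23 dynein and dynactin genes and above in 1, against 15.1% and 10.9% of all genes, and in 0 and 1 of the 18 light chains and adaptors.

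Proliferation markers were counted beside the mitotic kinesins. Of 14 markers and cell cycle regulators 13 were lower and 1 higher, with a median of -0.20, and 5 were called lower and none higher by limma, against 2.15% of all genes called lower. Without DMSO replicate 1 and with the GC and length trend removed it called 8 lower in each fit, against 8.46% and 6.66%. Their summed level was 81296 to 88593 normalized counts in DMSO and 65900 to 68366 with the drug, without overlap. TOP2A, a topoisomerase of dividing cells, held 24740, 20775 and 20893 against 15331, 16510 and 16523 (log2 fold change -0.45, limma adjusted p = 0.00626). Also called lower were MKI67, PCNA, CCNA2 and MYBL2, the last of which acts with MuvB at CHR promoters. FOXM1, its successor at these promoters in the cell cycle, was not called with all libraries (log2 fold change -0.20, limma adjusted p = 0.0672), but was without DMSO replicate 1 (-0.22, limma adjusted p = 0.000175). CCNB1, a cyclin of mitosis, differed by -0.08 with overlapping groups (limma adjusted p = 0.607), and by 0.01 without DMSO replicate 1. The part of proliferation in the kinesin results was not tested.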

How the data were processed

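Reads (paired-end, a directional mRNA kit, polyA RNA) were, per the labels and the study's methods, trimmed, aligned to hg38 and counted per gene with STAR 2.7.9a and normalized with DESeq2 1.44.0 by the authors, with FastQC 0.11.8 and MultiQC 1.8 for quality. The annotation and strand setting are not given in the sources used here. The deposited signal is a normalized count per gene. Dividing by the smallest value above 0 gave whole reads, to within 1e-06 of a read, for 100% of values in each library. Before division 0% of the values above 0 were whole to that tolerance, also in DMSO replicate 2 and YK replicate 3, whose step lay near 1. The table had 35269 rows, of which 1 without a name (at most 6 reads per library) was left out, and no column was left unused.

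For the 13930 genes averaging at least 10, the main test was limma 3.58.1 (R 4.3.3, eBayes with trend, two-sided, Benjamini-Hochberg adjusted) on log2 of the normalized count plus 1. Recovered reads tested in edgeR 4.0.16 or in DESeq2 1.42.0, other pseudocounts, filters and scalings, a replicate block, each library left out, and removal of GC content and length trends were alternatives. GC removal with a replicate block was added after seeing the data. The code was tested on simulated data. Gene positions, transcript lengths and GC content came from GENCODE 44 on hg38, and 98.4% of genes tested had the last 2. The members and lists were chosen with earlier results of these data known, so no list carries a test. The genes given in full were the kinesins called and, in each list, the highest per kilobase, the one with most reads and the 3 largest changes with a mean of at least 100; KIF20A and other members are examples. Depth limits the precision of members with few reads. Motor domain sequences were not analysed here.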

Additional observations from a re-analysis of the deposited data

How the results depend on the processing

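The number of kinesins called (4 by limma) ranged from 0 to 15 when 1 library was left out. It was 15 without DMSO replicate 1, 6 and 3 without DMSO replicates 2 and 3, and 0 without any 1 of the YK replicates. It was 2 with quantile normalization (KIF11 and KIF1A) and 0 with eBayes without trend (13 at an unadjusted p under 0.05). With GC content and length trends removed it was 14, and 14 with a replicate block besides. The replicate block alone gave 3 kinesins, since KIF2C was lost, and edgeR gave 4 and DESeq2 6. Replicate numbers did not pair the samples: same-numbered libraries had correlations of deviations of -0.10, -0.03 and -0.03. The mitotic median of -0.26 and the difference of medians of -0.32 kept their sign in every alternative run. They moved by less than the replicate spread, an SD of 0.103 and 0.119 within groups that includes DMSO replicate 1. Their ranges were -0.295 to -0.217 and -0.403 to -0.221 when 1 library was left out. The transport median of 0.05 moved beyond its own replicate spread, an SD of 0.0196, in 6 of the alternatives. It ranged from 0.0035 to 0.115 when 1 library was left out. With the GC and length trend removed it was 0.0304, with or without the replicate block. KIF5B, at -0.0949, changed sign once, and ranged from -0.165 to 0.0023 when 1 library was left out, the latter without DMSO replicate 1. Over all genes, calls numbered 475, and 1823 without DMSO replicate 1, 676 and 242 without DMSO replicates 2 and 3, 19, 23 and 46 without YK replicates 1, 2 and 3, 465 by edgeR and 633 by DESeq2 (22429 genes), 180 with the replicate block, 1586 with the GC trend removed, 277 with quantile normalization and 33 with an eBayes fit lacking the trend. Of the calls over all genes 37.1% were higher, against 47.7% and 90.9% in these last fits, and 78.9%, 69.6% and 60.9% without YK replicates 1, 2 and 3. Causes of these shifts were not tested.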
